A study of Mus musculus with 4 samples.

Results

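Nov Nppc Tnmd cells are a small mesenchymal population of endosteal bone marrow with UMIs of genes known from tendon, ligament and fibrocartilage. They were chosen by gates on single cells: at least 3 of the 6 genes Nov, Nppc, Mfap4, Cilp2, Tnmd and Itgbl1 with a UMI (a unique molecular identifier, which counts 1 captured mRNA), no UMI of Ostn or Ptprc, fewer than 2 UMIs of Ly6a, and Adipoq below 8 and Bglap plus Bglap2 below 100 per 10000 UMIs. Of 24084 cells that passed the filter of 200 to 6000 genes and at most 5% mitochondrial UMIs, 760 met the rule, which is 3.16%. The levels of these genes in the cells are therefore a description of how the cells were picked.

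Cells came from the long bones of male Col2:Td mice, in which Cre driven by the Col2 promoter switches on the tdTomato reporter (Rosa26-tdTomato) in chondrocytes and their mesenchymal relatives; the strain label is B6SJL/F1. Sorted Td+ cells of endosteal bone marrow, released by enzyme digestion after the periosteum had been scraped off, were sequenced as 4 libraries. The 1 month library pooled 2 mice and the 1.5, 3 and 16 month libraries 3 mice each. Each age is thus 1 library without a replicate, age cannot be told apart from library, and no test was made between ages. All 4 groups carry the same alleles, and the labels name no treatment.

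In tendon, the transcription factors Scleraxis (Scx) and Mohawk (Mkx) drive a program of fibrillar collagens and small leucine-rich proteoglycans, and tenomodulin (Tnmd), a membrane glycoprotein, marks differentiated tenocytes. Nppc encodes C-type natriuretic peptide, which acts through the receptor Npr2 on growth plate cartilage. Nov, now named Ccn3, encodes a matricellular protein of the CCN family. Tendon and ligament join bone through fibrocartilage at the enthesis, where cells combine tendon and cartilage genes. Mfap4 encodes a protein of elastic microfibrils, Cilp2 a cartilage intermediate layer protein and Itgbl1 a secreted integrin beta-like protein.

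The libraries held 4516 to 9229 barcodes and 32672631 to 108227184 UMIs. The Nov Nppc Tnmd cells had a median of 8498, 9183, 4919.5 and 9921.5 UMIs in order of age (1, 1.5, 3 and 16 months), so the 3 month cells were the shallowest. Between 1 and 61 barcodes were shared by a pair of libraries, and 1 barcode was a Nov Nppc Tnmd cell in both the 1 and the 3 month library. The mitochondrial limit removed 98, 291, 326 and 2987 barcodes at 1, 1.5, 3 and 16 months. The reporter, listed as tomato, was measured at 2701, 3117, 3503 and 4112 CPM (UMIs of the gene per 1000000 UMIs) in the 4 libraries in order of age. No UMI of Xist was found in these cells, and the mice were labelled male.

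By the rule as set, Nov Nppc Tnmd cells made up a like share of filtered cells in the 3 younger libraries. The share was smaller at 16 months. There were 311, 219, 184 and 46 cells in order of age. These were 3.74% (exact Clopper-Pearson 95% interval 3.35 to 4.17) of filtered cells at 1 month, 4.02% (3.51 to 4.57) at 1.5 months, 4.40% (3.80 to 5.07) at 3 months and 0.749% (0.549 to 0.998) at 16 months. The interval at 16 months lay below the other 3, which overlapped each other. The intervals cover counting error only. The rule counts genes with a UMI, so depth bears on it, and the 3 month cells were the shallowest. With cells thinned to 3000 UMIs before the rule, the shares were 2.72, 3.25, 4.45 and 0.533% in order of age. With at least 4 rule genes they were 2.20, 2.71, 3.68 and 0.488%. In both settings the 3 younger libraries were less alike, with 3 months the highest. Without the cells that also met a gate for chondrocytes the shares were 3.15, 2.07, 4.33 and 0.749%, so the 1.5 month share lay below the other younger libraries. Without the cells that held 2 or more UMIs of endothelial, mural, Schwann, muscle and blood genes they were 0.0241, 1.21, 2.18 and 0.114%, and the 1 month share was then below that at 16 months. Only 2, 66, 91 and 7 cells were left in that setting. At 1 month 288 of the 311 cells held 2 or more UMIs of blood genes, and at 16 months 33 of 46 held as many of Schwann genes. The UMIs of the Schwann list were mainly S100b and Ncam1, with no UMI of Sox10 at 16 months. They need not come from Schwann cells.

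The libraries differed in how many blood cells and chondrocytes they held, so the share was also taken of mesenchymal cells found by gates of the same kind. On that base it was 31.0% (28.2 to 34.0) of 1002 cells at 1 month, 9.05% (7.94 to 10.3) of 2419 at 1.5 months, 15.9% (13.8 to 18.1) of 1157 at 3 months and 1.33% (0.974 to 1.77) of 3464 at 16 months. None of these intervals overlapped another, and the order of the 3 younger libraries was not that of the share of all filtered cells. The 16 month share was the lowest on both bases, and with the mitochondrial limit at 10% it was 0.709% of filtered cells. With 1 library per age, a difference between mice, digestion or sort cannot be told apart from one between ages.

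**Figure D1:**
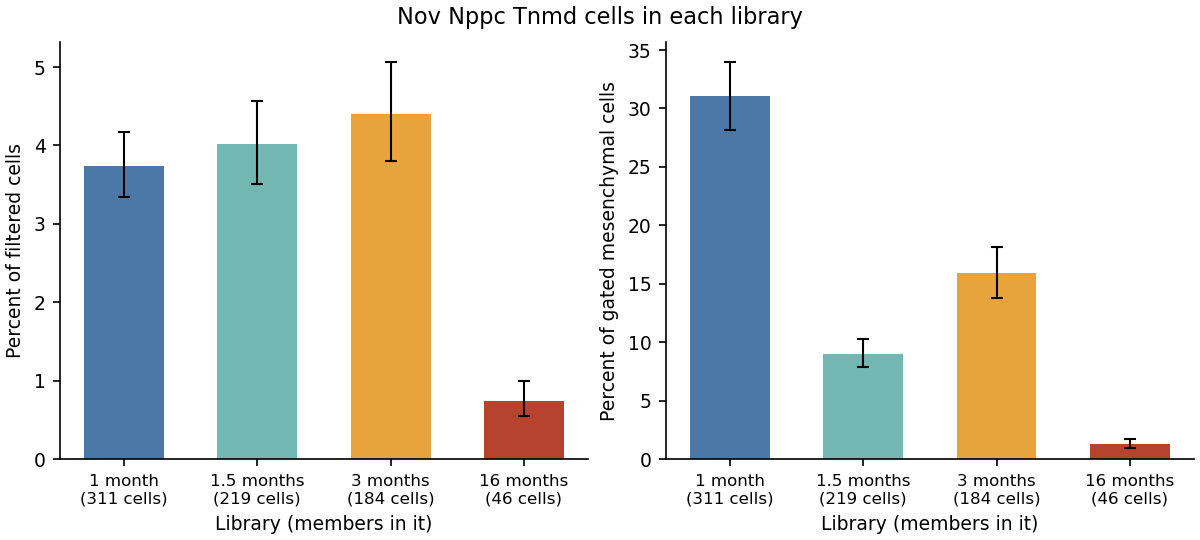
Nov Nppc Tnmd cells as a percent of filtered cells (left) and of gated mesenchymal cells (right) in the 4 libraries, 1 bar per library with its exact 95% binomial interval. The 16 month bar is the lowest in both panels, at 0.749% and 1.33%.

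Before the exclusions, 1107 cells had at least 3 of the 6 genes, of which 155 had 2 or more UMIs of Ly6a, 98 a UMI of Ostn, 92 a UMI of Ptprc, 45 were over the Bglap limit and 10 over that of Adipoq. The Ptprc exclusion fell mostly on the 1 month library, with 85 of 463 such cells there against 0, 7 and 0 at 1.5, 3 and 16 months. The number of rule genes per cell rested at the threshold most often in the 1 month library, where 128 of 311 cells had exactly 3. Over the 4 libraries 515 of the 760 cells had 4 or more. In cells with exactly 3 rule genes, just inside the threshold, Tnmd was at 854, 298, 245 and 48.7 CPM in the 4 libraries in order of age, and in those with exactly 2, just outside it, at 246, 102, 46.1 and 20.6 CPM. For Sfrp2, which the rule did not use, the values were 75.2, 123, 3319.8 and 807 CPM inside and 52.3, 37.4, 989 and 327 CPM outside. Tnmd had to be lower outside, since the rule counts it. Of other genes the rule did not use, Comp was at 1931, 3269, 2301 and 2770.0 CPM inside and 1724, 3710.0, 2387 and 1516 CPM outside, and Cilp at 66, 64.6, 38.7 and 62.6 CPM inside and 9.29, 38.6, 179 and 2.29 CPM outside. Sfrp2 was lower outside in each library, while Comp at 1.5 and 3 months and Cilp at 3 months were higher outside. The cells just outside held Col2a1 at 12876, 35797, 5479.7 and 70.9 CPM, against 12611, 27360.3, 1160.3 and 6.96 CPM inside.

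The 6 rule genes did not go together over the libraries. Nov, on chromosome 15 (54745702 to 54754039, plus strand, GRCm38, GENCODE M21, where it is listed as Ccn3), was at 148, 1132, 1639 and 554 CPM at 1, 1.5, 3 and 16 months. Nppc, on chromosome 1 (86666291 to 86670571, minus strand), was at 74.6, 609, 819 and 237 CPM. Tnmd, on chromosome X (133850980 to 133865577, plus strand), was at 1370.1, 743, 482 and 194 CPM in the same order. Tnmd was thus highest at 1 month, where Nov and Nppc were lowest, and Nov and Nppc were highest at 3 months.

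Cilp2 was at 810.0, 1025, 1065 and 476 CPM, Mfap4 at 1337, 1447, 1121 and 268 CPM and Itgbl1 at 228, 595, 959 and 627 CPM. Mfap4 and Cilp2 were lowest at 16 months, and Itgbl1 was lowest at 1 month. In neutrophils of the same libraries, which should lack these genes and so show what free RNA gives, none of the 6 exceeded 15.4 CPM (Itgbl1). After each cell was thinned to 3000 UMIs, which left out 9 of the 3 month cells, 62.4, 47.9, 38.9 and 32.6% had a UMI of Tnmd and 23.5, 54.3, 76.6 and 50% one of Nov (76.5, 64.4, 46.2 and 52.2% and 37.9, 66.2, 79.9 and 58.7% before thinning). The share with Tnmd was higher at 16 than at 3 months before thinning and lower after it. After the same thinning 0 to 4.76% of neutrophils had a UMI of Tnmd and 0 to 4.76% one of Nov; the 1.5 month library held only 21 neutrophils.

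Sfrp2, a secreted Wnt modulator and the only marker in the name's list that the gates did not use, was at 136, 1033, 2882 and 944 CPM in order of age and in 18, 41.6, 70.3 and 56.5% of the thinned cells (30.2, 47.9, 75 and 65.2% before thinning). Its level was lowest at 1 month and highest at 3 months, the same libraries as for Nov. In neutrophils it stood at 1.54 to 11.5 CPM and in 0.324 to 4.76% of the thinned cells. In Ly6a Cd34 cells, the fibroblast progenitors with Cd34, Clec3b and Pi16, Sfrp2 was at 216, 254, 19.9 and 196 CPM, which was above the Nov Nppc Tnmd cells at 1 month and below them in the other libraries. In Ostn Aspn Tnn cells, gated on osteocrin (Ostn) with matrix genes such as Aspn and Postn, it was at 9.22, 130.2, 267 and 10.6 CPM, below the Nov Nppc Tnmd cells in each library.

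Scx was detected in the cells at every age and Mkx at low levels. Scx was at 114, 159, 68 and 63.9 CPM and in 22.2, 27.4, 13.1 and 17.4% of the thinned cells (40.5, 48.9, 25 and 39.1% before thinning), against 0 to 0.52% of thinned neutrophils. In Ly6a Cd34 cells Scx was at 11.5, 53, 14.9 and 8.34 CPM, lower in each library, and in Ostn Aspn Tnn cells at 91.2, 74.4, 101 and 74.4 CPM, a range that overlaps that of the Nov Nppc Tnmd cells. Scx was thus shared with Ostn Aspn Tnn cells. Mkx was at 17.4, 37.6, 32.5 and 20.6 CPM in Nov Nppc Tnmd cells, at 3.07, 6.73, 0 and 16.7 CPM in Ly6a Cd34 cells and at 5.12, 7.47, 0 and 15.9 CPM in Ostn Aspn Tnn cells. In each library it was the highest in Nov Nppc Tnmd cells, at levels that rest on few UMIs.

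**Figure D2:**
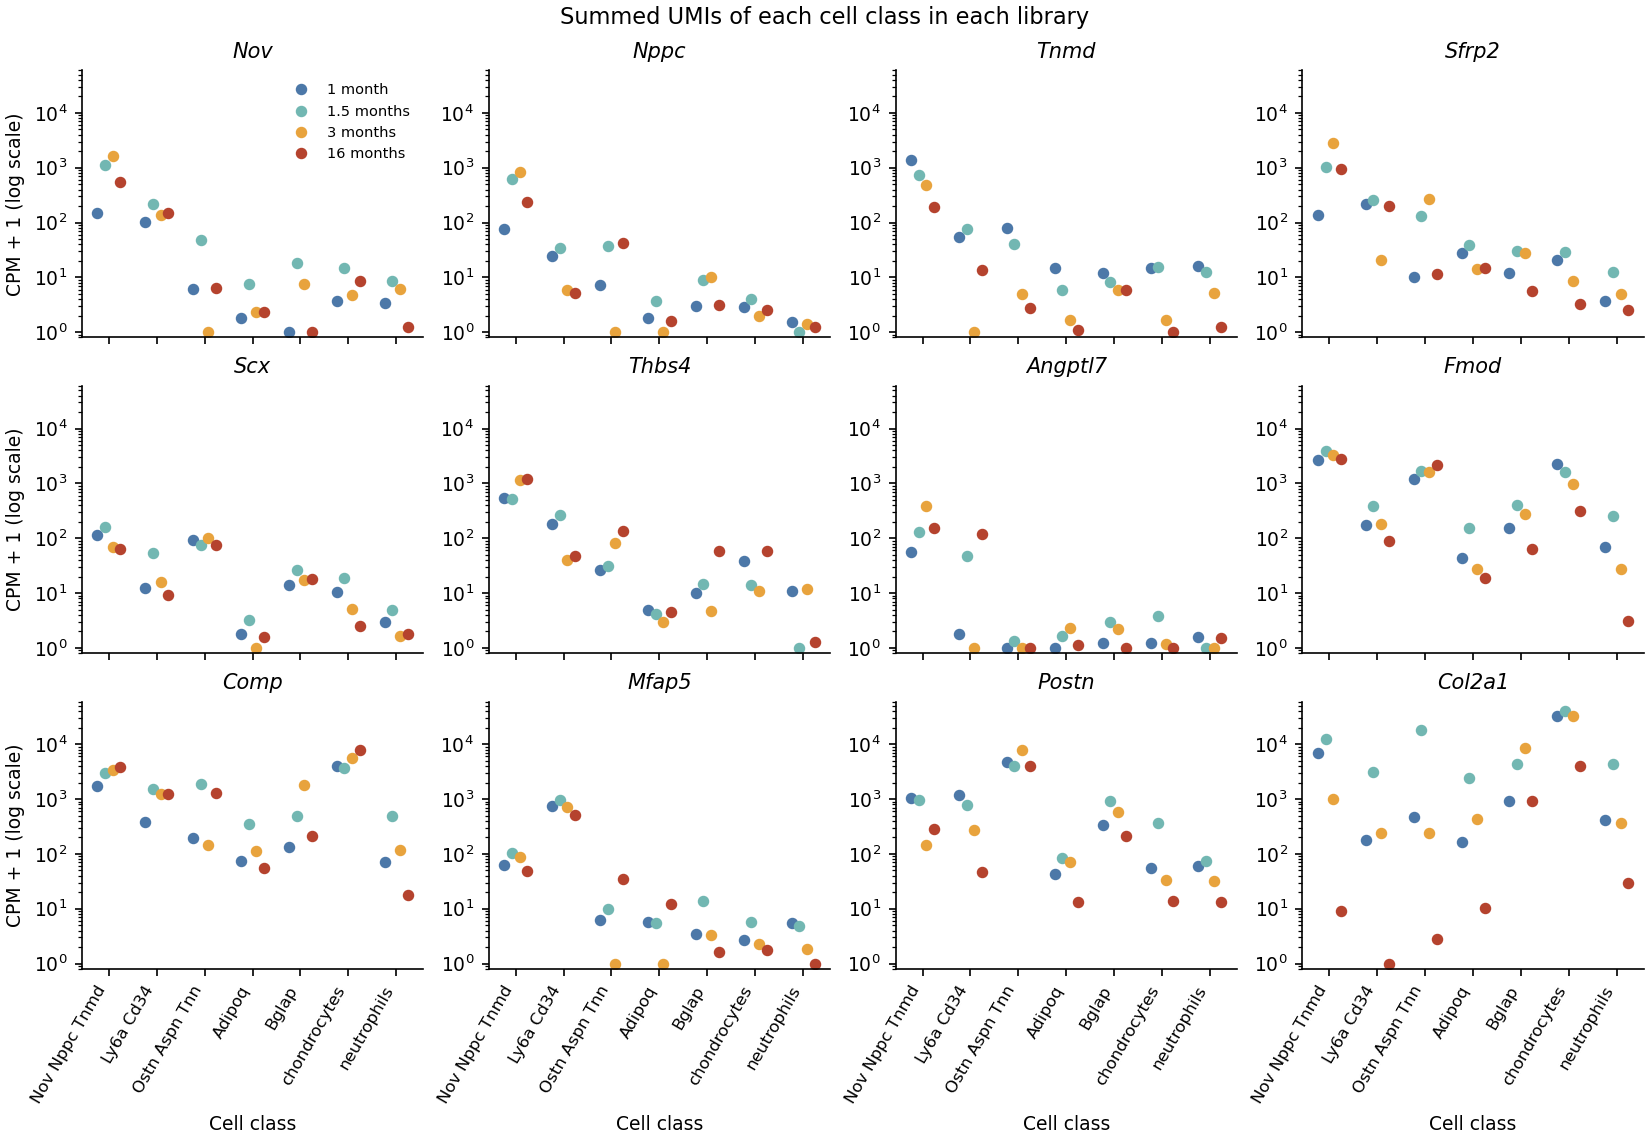
Levels of 12 genes (CPM plus 1, log axis) in Nov Nppc Tnmd cells, Ly6a Cd34 cells, Ostn Aspn Tnn cells, Adipoq cells, Bglap cells, chondrocytes and neutrophils, 1 point per library. Nov, Nppc and Tnmd chose the cells. Fmod, Thbs4 and Comp lie high in Nov Nppc Tnmd cells in all 4 libraries. Mfap5 lies highest in Ly6a Cd34 cells and Postn in Ostn Aspn Tnn cells. Both are gate genes of those classes, so their levels there describe how the classes were picked.

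Set against the 369 Ly6a Cd34 cells, the Nov Nppc Tnmd cells were higher in proteoglycans of the tendon and cartilage matrix, in cartilage genes and in a few bone genes, and lower in the surface and matrix genes of fibroblast progenitors. A gene was called when it was at least 2-fold apart in the same direction in each of the 4 libraries, with 1 CPM added to both sides and a mean of at least 20 CPM. Of 5287 genes, 99 (1.87%) were called higher and 139 (2.63%) lower. Both classes were picked by gates in the same libraries, so the counts are descriptions and carry no test.

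Of 14 small leucine-rich proteoglycans measured, which bind collagen fibrils and set their diameter, 5 were called higher (Fmod, Omd, Podnl1, Chad and Chadl) and none lower, with a median log2 ratio of 1.10 against -0.03 over all genes measured. Fmod, fibromodulin, was at 2675, 3958, 3268 and 2838 CPM in Nov Nppc Tnmd cells and at 170.3, 390.2, 179 and 87.5 CPM in Ly6a Cd34 cells, log2 ratios of 3.34 to 5.0. Omd, osteomodulin, was at 529.9, 434, 604 and 425 against 26.9, 18.5, 44.7 and 29.2 CPM, log2 ratios of 3.73 to 4.48. The libraries of the pair of classes did not overlap for either gene. Decorin (Dcn) was at 2988, 5634, 13379 and 10087 CPM in Nov Nppc Tnmd cells and at 6676, 11626, 15003 and 21132 CPM in Ly6a Cd34 cells, and was not called.

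Of 29 tendon and ligament matrix genes, 6 were called higher (Thbs2, Fmod, Col11a1, Col12a1, Clu and Cpxm2) and 5 lower (Col5a3, Col14a1, Tnxb, Tppp3 and Prg4), with a median log2 ratio of 0.41. The called genes of this list therefore went both ways. Col12a1, a collagen of fibril surfaces, was at 454, 1041, 1164 and 2469 CPM against 76, 227, 104 and 121 CPM. Thbs4, a thrombospondin of tendon and muscle attachments, was at 544, 526, 1175 and 1212 CPM against 184, 266, 39.7 and 45.9 CPM, higher in each library but under 2-fold at 1.5 months. Comp, cartilage oligomeric matrix protein, was at 1695, 2978, 3363 and 3782 against 381, 1538, 1221 and 1229.8 CPM, with the same gap at 1.5 months. Among the lower genes, Tppp3, which is known from the tendon sheath, was at 154, 78.2, 29.4 and 12.4 against 1609.8, 1935, 1449.7 and 496 CPM, and Prg4, the lubricin of joint surfaces, at 106, 58.2, 35.5 and 35 against 602, 1935, 6265 and 6937 CPM. Both were lower in Nov Nppc Tnmd cells at every age.

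Scx was the 1 gene called of 7 tendon transcription factors. Of 19 chondrocyte genes 6 were called higher (Acan, Col2a1, Col9a1, Col9a2, Col11a1 and Chad), with a median log2 ratio of 1.77. At 16 months Col2a1, Col9a1 and Col9a2 were at only 8.24, 2.06 and 12.4 CPM in Nov Nppc Tnmd cells. A count of 0 in Ly6a Cd34 cells of that library allows up to 12.5 CPM. The calls of these genes therefore rest on few UMIs there. Of the Nov Nppc Tnmd cells 158 met the chondrocyte gate. Without them Col2a1 was at 206, 1729, 247 and 8.24 CPM, below the neutrophils (411, 4382, 372 and 27.9 CPM) in each library, and in Ly6a Cd34 cells it was at 179.5, 3107, 238 and 0 CPM. Of 14 osteoblast genes 3 were called higher, the homeobox gene Dlx5, the alkaline phosphatase gene Alpl and the potassium channel gene Kcnk2, with a median of 1.28. Kcnk2 was at 33.8, 44.5, 89.3 and 113 against 4.6, 3.36, 4.96 and 8.34 CPM, and Dlx5 at 60.3, 89, 88.3 and 70.1 against 18.4, 22.7, 4.96 and 8.34 CPM. Spp1, osteopontin of bone matrix, was at 2695, 712, 348 and 1031 CPM in Nov Nppc Tnmd cells and at 592, 1272, 1158 and 587 CPM in neutrophils, above them at 1 month and 16 months and below them in between.

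Of 14 universal fibroblast progenitor genes left after the gate genes were taken out, 9 were called lower (Ly6c1, Thy1, Pdgfra, Col14a1, Cd248, Procr, Anxa3, Ebf2 and Has1) and none higher, with a median of -3.11. Ly6c1, a surface protein of the Ly6 family next to the gate gene Ly6a, was at 19.9, 27.9, 13.2 and 4.12 against 849, 1759, 1296 and 513 CPM, log2 ratios of -6.65 to -5.35. Tnxb, tenascin X, was at 11.1, 9.78, 7.1 and 2.06 against 298, 278, 362 and 359 CPM, log2 ratios of -6.88 to -4.62. Of 19 microfibril and elastic fibre genes 5 were called lower (Fbn1, Fbln2, Efemp1, Ltbp4 and Emilin2) and none higher. Mfap4 belongs to the same list, but the rule used it.

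Among the genes with the largest smallest-library ratio, Scube2, a secreted hedgehog release factor, was at 32.4, 52.8, 40.6 and 53.6 against 0.767, 2.52, 0 and 0 CPM. Col8a2, a short-chain collagen, was at 178, 384, 398 and 311 against 16.9, 25.2, 19.9 and 25 CPM, and Matn4, a matrilin, at 643, 609.7, 535 and 631 against 67.5, 48.8, 29.8 and 75 CPM. Megf6, with EGF-like repeats, was at 82.6, 86, 79.1 and 134 against 7.67, 5.05, 4.96 and 12.5 CPM and Camk4, a calmodulin kinase, at 66.2, 69.9, 104 and 198 against 3.84, 10.1, 4.96 and 20.8 CPM. H19, an imprinted long noncoding RNA, was at 1584, 963, 443 and 173 against 189.5, 40.4, 39.7 and 0 CPM, with no UMI in the 31 Ly6a Cd34 cells at 16 months, a count that allows up to 12.5 CPM. The libraries of the pair of classes overlapped for H19, whose level was lowest at 16 months in both, and not for the other genes. Tspan15, Scg3, Sema3e, Creb5, Emilin2, Col6a6, Efemp1 and Has1 followed Ly6c1 and Tnxb on the lower side, and Has1, a hyaluronan synthase, was at 6.97, 12.2, 34.5 and 28.9 against 250.1, 392, 576 and 329 CPM.

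Set against the 420 Ostn Aspn Tnn cells, the Nov Nppc Tnmd cells were higher in Angptl7, Cilp, Thbs4, Fgf18 and Igfbp2 and lower in Sp7, Dlx6 and Alpl, genes of the osteoblast lineage. Of 5207 genes 73 (1.4%) were called higher and 46 (0.883%) lower, 119 in all, and without the 1.5 month library 186 were called. Of 28 tendon and ligament matrix genes 6 were called higher (Thbs4, Cilp, Angptl7, Clu, Cpxm2 and Abi3bp) and none lower, while the median log2 ratio of the list was -0.22 against -0.04 over all genes, so the list as a whole was not shifted upward. Thbs4 was at 25.6, 30.6, 80.9 and 133 CPM in Ostn Aspn Tnn cells, log2 ratios of 3.18 to 4.36. Cilp, a cartilage intermediate layer protein, was at 64.1, 75.3, 34.5 and 208 CPM in Nov Nppc Tnmd cells and at 2.05, 2.49, 0 and 3.54 CPM in Ostn Aspn Tnn cells. Angptl7, an angiopoietin-like secreted protein, was at 54.7, 131, 381 and 155 CPM and had no UMI in Ostn Aspn Tnn cells in 3 libraries and 0.356 CPM at 1.5 months. The counts of 0 allow up to 3.07, 12.1 and 5.31 CPM at 1, 3 and 16 months.

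The fibrillar collagen genes of tendon and bone were not called against Ostn Aspn Tnn cells. Col1a1 was at 13184, 20106, 8789.6 and 6569 CPM in Nov Nppc Tnmd cells and at 14489, 20370.4, 31613 and 19894 CPM in Ostn Aspn Tnn cells, and Col3a1 at 3547, 5486, 2583 and 1937 against 7510.2, 9560.4, 17536 and 10027 CPM. Col3a1 was the lower in Nov Nppc Tnmd cells in each library, and Col1a1 was within 2-fold at 1 and 1.5 months. Of the other lists, 1 of 14 proteoglycans (Chad), 3 of 15 microfibril genes (Fbln2, Ltbp1 and Ltbp2), 1 of 7 universal fibroblast genes (Col15a1) and 1 of 18 chondrocyte genes (Chad) were called higher, and none of 7 tendon transcription factors was called. Of 15 osteoblast genes 3 were called lower, the transcription factors Sp7 and Dlx6 and Alpl, with a median log2 ratio of -0.74. Sp7 was at 13.2, 37.6, 8.12 and 24.7 against 94.3, 93.2, 93 and 63.7 CPM, and Alpl at 195, 289, 145 and 175 against 1175, 654, 797 and 728 CPM. No library of the pair of classes overlapped for either gene.

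The working name of the cells is periosteal progenitors, which the periosteal progenitor list could not check. Of 16 such genes compared with Ly6a Cd34 cells 4 were called lower (Pdgfra, Adamts5, Thy1 and Ackr3) and none higher, with a median log2 ratio of 0.44 against -0.03 over all genes. Of 15 compared with Ostn Aspn Tnn cells 1 was lower (Mmp14) and none higher, with a median of -0.14 against -0.04. Both counts of 0 lie near the 1.87% and 1.4% of all genes called higher, so nothing is read from them. The shares of all genes called lower were 2.63% and 0.883%. The 4 of 16 called lower against Ly6a Cd34 cells lie above that share, while the median of the list was above that of all genes. Of these 4, Pdgfra and Thy1 are also in the universal fibroblast progenitor list. Nothing is read from the single gene lower against Ostn Aspn Tnn cells. Periostin (Postn), a gate gene of the Ostn Aspn Tnn cells and so no finding against them, was at 1039.5, 955, 147 and 289 CPM in Nov Nppc Tnmd cells and 4844, 4005, 8014 and 3999 CPM there. Ctsk, the cathepsin K gene, was at 491, 661, 823 and 602 CPM in Nov Nppc Tnmd cells. Position in the bone was not measured, and the periosteum had been scraped off before digestion. The cells are therefore called by their leading genes here.

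**Figure D3:**
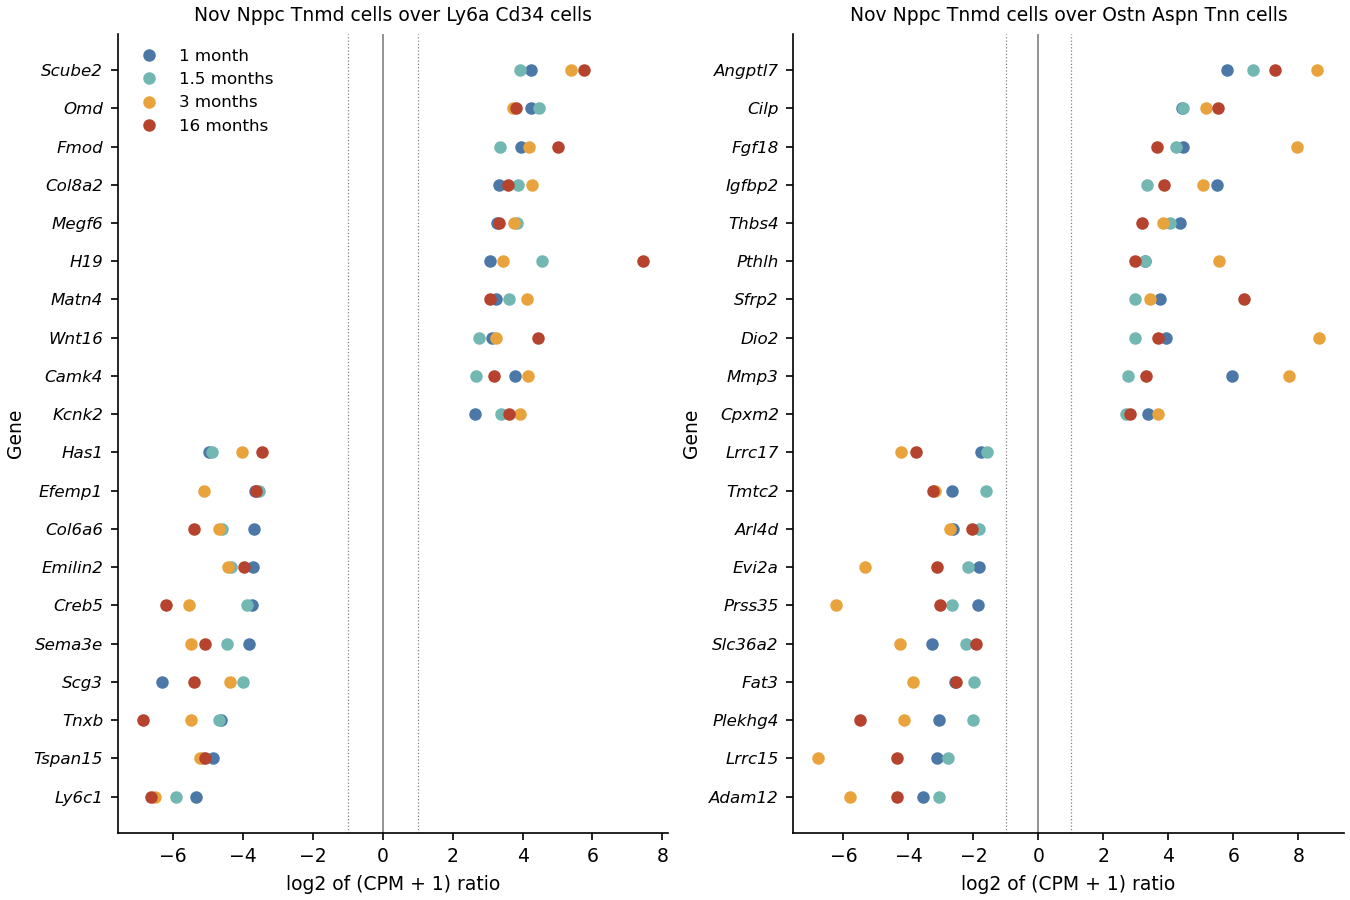
Log2 ratios (CPM plus 1) of Nov Nppc Tnmd cells to Ly6a Cd34 cells and to Ostn Aspn Tnn cells for the genes called with the largest smallest-library ratio, up to 10 in each direction, 1 point per library, dotted lines at 2-fold. Fmod spans 3.34 to 5.0 and Ly6c1 -6.65 to -5.35 against Ly6a Cd34 cells, and Thbs4 spans 3.18 to 4.36 against Ostn Aspn Tnn cells.

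Several secreted factors were among the genes higher than in Ostn Aspn Tnn cells. Fgf18, a growth factor of cartilage and bone, was at 66.5, 174, 246 and 78.3 against 2.05, 8.18, 0 and 5.31 CPM, and Pthlh, which encodes parathyroid hormone-related protein, at 28.9, 43, 46.7 and 35 against 2.05, 3.56, 0 and 3.54 CPM. Igfbp2, an IGF binding protein, was at 43.9, 23.5, 167 and 1090.3 against 0, 1.42, 4.05 and 74.4 CPM, and Dio2, the deiodinase that makes active thyroid hormone, at 61.3, 48.9, 396 and 239 against 3.07, 5.34, 0 and 17.7 CPM. The Ostn Aspn Tnn cells lay below the Nov Nppc Tnmd cells of the same library for all 4 genes. Mmp3, a matrix metalloproteinase, was at 61.3, 46.4, 209 and 169 against 0, 6.05, 0 and 15.9 CPM and Cpxm2, a carboxypeptidase-like protein, at 138, 316, 274 and 431 against 12.3, 48, 20.2 and 60.2 CPM. Adam12, Lrrc15, Plekhg4, Fat3, Slc36a2, Prss35, Evi2a, Arl4d, Tmtc2 and Lrrc17 led the lower side; Lrrc15 was at 16, 19.6, 1.01 and 4.12 against 147, 139, 218 and 103 CPM and Fat3, an atypical cadherin, at 7.66, 7.82, 4.06 and 22.7 against 50.2, 34.2, 72.8 and 136 CPM.

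The receptors of the natriuretic peptides had few UMIs in the cells. Npr2, the signalling receptor of C-type natriuretic peptide, was at 19.2, 23, 23.3 and 39.2 CPM in Nov Nppc Tnmd cells, 17.6, 17.7, 29.8 and 33.4 CPM in Ly6a Cd34 cells and 9.22, 14.2, 12.1 and 44.3 CPM in Ostn Aspn Tnn cells, without a call. The clearance receptor Npr3 had 1.39, 1.96, 0 and 4.12 CPM, and Nppa had no UMI. Of 7 genes of the pathway measured, Fgfr3, a receptor that counters growth of cartilage, was the 1 called, higher than in Ly6a Cd34 cells and lower than in Ostn Aspn Tnn cells, at 27.2, 69.9, 13.2 and 35 CPM in Nov Nppc Tnmd cells. Of the CCN family beside Nov, Ctgf (Ccn2) was at 82.6, 264, 148 and 699 CPM and was called higher than in Ly6a Cd34 cells (19.9, 97.6, 44.7 and 171 CPM), the 1 call of 4 genes, and none of 4 was called against Ostn Aspn Tnn cells. Over all genes 1.87% were called higher against Ly6a Cd34 cells and 0.883% lower against Ostn Aspn Tnn cells. Nothing is read from single calls in lists of 7 and 4 genes.

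Of the Wnt modulators, Wnt16 was called higher and Dkk2 lower of 8 against Ly6a Cd34 cells, and Sfrp2 and Wif1 higher and Wnt5b lower of 9 against Ostn Aspn Tnn cells. Wif1, Wnt inhibitory factor, was at 476, 374, 280.0 and 57.7 CPM in Nov Nppc Tnmd cells and 69.7, 122, 12.1 and 15.9 CPM in Ostn Aspn Tnn cells. Sfrp4, of the family of Sfrp2, was at 55.7, 601, 2142 and 684 CPM in Nov Nppc Tnmd cells and at 1033, 2078, 4538 and 1155 CPM in Ly6a Cd34 cells, where it was the higher in each library. Of 24 TGF-beta and BMP genes 2, Tgfb3 and the BMP antagonist Chrdl1, were called higher against Ly6a Cd34 cells, and of 27 against Ostn Aspn Tnn cells 2, Bmp4 and its antagonist Fst. Of 12 hedgehog and FGF genes Fgfr2 and Fgfr3 were called higher against Ly6a Cd34 cells. Of 10 against Ostn Aspn Tnn cells Pthlh and Fgf18 were called higher and Fgfr3 lower. Over all genes 1.87% were called higher and 2.63% lower against Ly6a Cd34 cells, and 1.4% and 0.883% against Ostn Aspn Tnn cells. These lists are short, so nothing is read from their counts. Gdf5, a BMP family ligand of joints and entheses, was at 28.2, 22.5, 42.6 and 2.06 CPM in Nov Nppc Tnmd cells, 1.53, 2.52, 0 and 0 CPM in Ly6a Cd34 cells and 1.02, 7.47, 0 and 0 CPM in Ostn Aspn Tnn cells.

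Among themselves the cells differed in whether they held Tnmd or Nov and Nppc. Cells with a UMI of Tnmd and none of Nov or Nppc were 137 (44.1%), 34 (15.5%), 8 (4.35%) and 11 (23.9%) in order of age. Cells with Nov or Nppc and no Tnmd were 46 (14.8%), 63 (28.8%), 90 (48.9%) and 18 (39.1%) in the same order. Cells with both were 32.5% of the 1 month cells, 48.9% of the 1.5 month, 41.8% of the 3 month and 28.3% of the 16 month cells. Cells with both were present at every age, so the pair of patterns was not exclusive. A cell with few of these transcripts must hold others of the 6 to meet the rule, which ties the patterns to each other, and a gene without a UMI may still be expressed.

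Of 5208 genes compared between cells with and without a UMI of Tnmd, 2 (0.0384%) were called higher with Tnmd, Cilp and Chodl, and none (0%) lower. In cells with Tnmd, Cilp was at 82.1, 114, 65.2 and 347 CPM, and without it at 4.5, 5.45, 9.25 and 48.6 CPM. Chodl, chondrolectin, a membrane lectin, was at 78, 58, 18 and 11.6 CPM with Tnmd and 0, 8.17, 0 and 0 CPM without. Both were higher in the cells with Tnmd in each library. For Chodl this rests on few UMIs at 3 months and on 3 UMIs in 2 cells at 16 months. Its zeros without Tnmd may therefore hide a like level there. At 16 months the comparison rests on 24 cells with Tnmd and 22 without, and with any 1 library left out 5 to 11 genes were called.

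When the cells with Tnmd alone were set beside those with Nov or Nppc alone, a choice of genes made after the values were seen, Cilp was at 106, 187, 421 and 606 CPM in the former and 8.04, 5.11, 10.1 and 62.9 CPM in the latter. Thbs4 was at 668, 794, 2386 and 1895 CPM against 177, 80.01, 924 and 835 CPM. Kera, the proteoglycan keratocan, was at 172, 667, 112 and 0 CPM against 32.2, 18.7, 12.1 and 11.4 CPM. Cilp and Thbs4 were higher with Tnmd alone in all 4 libraries, and Kera in the first 3. Dio2 was at 16.2, 10.6, 28.1 and 125 CPM against 257, 30.6, 467 and 314 CPM, and Fgf18 at 22.4, 17.7, 28.1 and 19.2 CPM against 107, 175, 259.6 and 62.9 CPM. These genes were higher with Nov or Nppc alone in every library. Cartilage genes moved with the same split at 1 month: Col2a1 was at 11325, 18266, 112 and 0 CPM with Tnmd alone and 164, 15637, 1712 and 11.4 CPM with Nov or Nppc alone, and Cnmd at 987, 1204, 0 and 0 CPM against 18.8, 1295, 115 and 0 CPM. Their part in the other differences was not tested. The 3 and 16 month values with Tnmd alone rest on 8 and 11 cells.

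**Figure D4:**
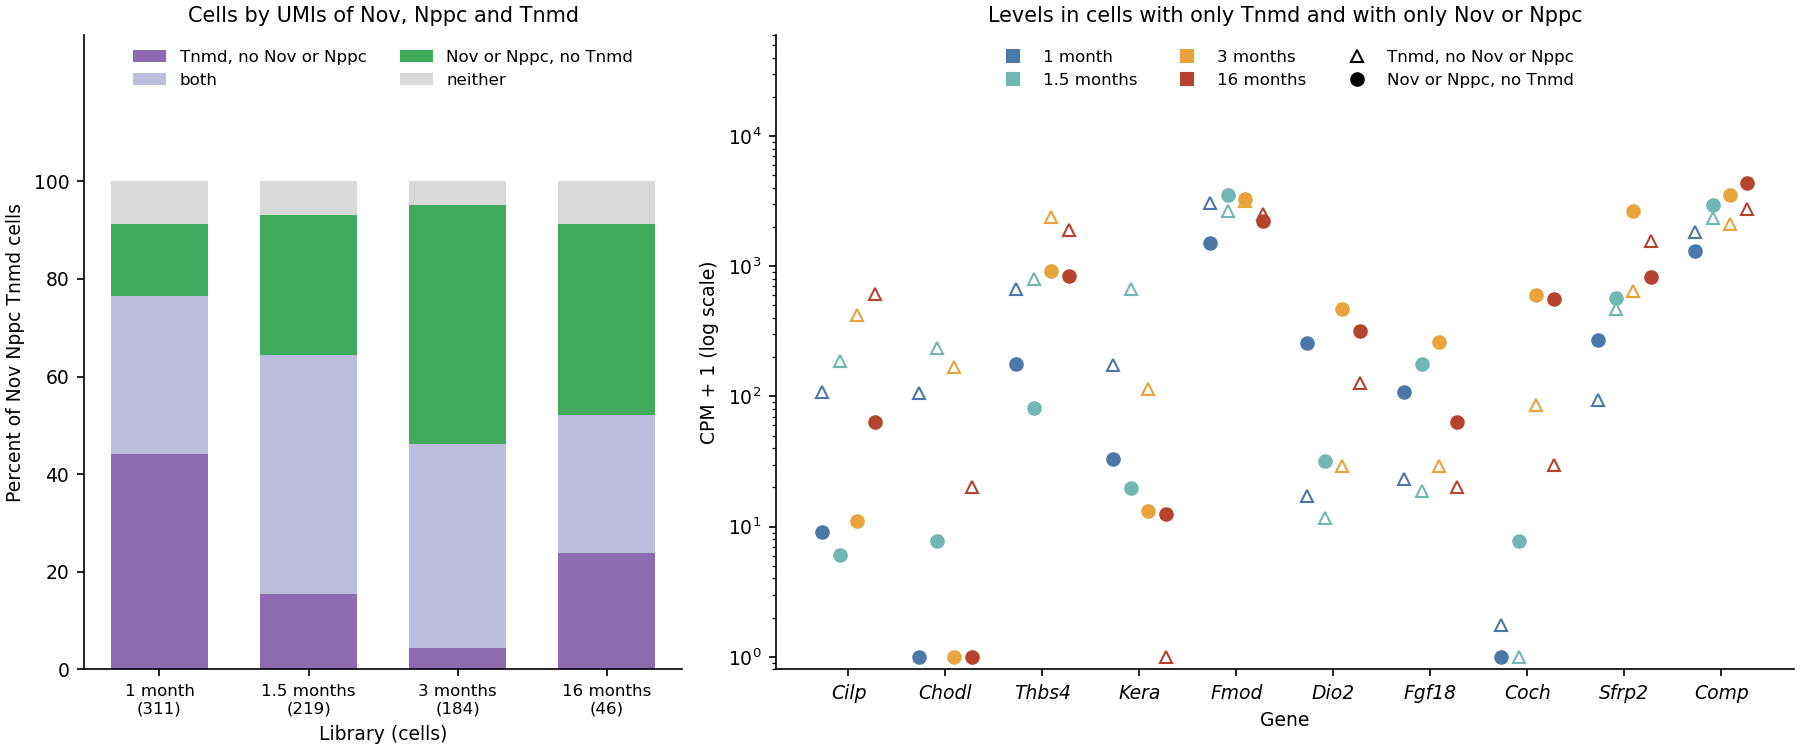
Left, percent of Nov Nppc Tnmd cells in each library with Tnmd only, with Tnmd and Nov or Nppc, with Nov or Nppc only, and with none of the 3. Right, CPM plus 1 (log axis) of 10 genes in the cells with Tnmd only and those with Nov or Nppc only, 1 point per library; Cilp and Thbs4 lie higher in the former and Dio2 and Fgf18 in the latter in all 4 libraries.

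Chondrocyte transcripts were unevenly spread over the cells and libraries. Col2a1, the fibrillar collagen of cartilage, was at 6872, 12701, 984 and 8.24 CPM in order of age, and in neutrophils of the same libraries at 411, 4382, 372 and 27.9 CPM. Per cell, the median of Col2a1 was 1.91, 17.5, 2.08 and 0 per 10000 UMIs, and the highest cell of each library held 1085, 725, 348 and 1.91. A few cells therefore carried much of it at 1 month, and free RNA was highest at 1.5 months. The gate used for chondrocytes was also met by 49 cells (15.8%) at 1 month, 106 (48.4%) at 1.5 months, 3 (1.63%) at 3 months and none at 16 months. Without these 158 cells Col2a1 was at 206, 1729, 247 and 8.24 CPM, Tnmd at 1578, 1116, 499 and 194 CPM and Scx at 136, 283, 70.4 and 63.9 CPM. Tnmd and Scx were thus as high or higher without the cells that met the chondrocyte gate. Other genes went the other way at 1 month: Comp, Chad and Fmod were at 3806, 2836 and 3622 CPM in the cells that met it and 1167, 1006 and 2439 CPM in the rest. At 1.5 months Comp was again higher in the cells that met it (3391 against 2308 CPM), while Chad and Fmod were lower. Whether those cells were doublets was not tested.

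Between the younger and older libraries, cartilage genes such as Ucma and Acan were lower in the older libraries, and Cfb, Coch and Hk2 higher. Here a gene was called when both the 3 and the 16 month library were at least 2-fold above or below both the 1 and the 1.5 month library. Of 5177 genes 67 (1.29%) were called higher and 84 (1.62%) lower. Of 18 chondrocyte genes 13 were called lower, with a median log2 difference of -3.83 against -0.05 over all genes. Summed over the chondrocyte list, which also holds Comp, Chad and Sox9, the cells held 16172, 34052, 9125 and 5468 CPM in order of age, and neutrophils 1129, 11624, 1274 and 166 CPM. Without the cells that met the chondrocyte gate, 4 of 16 chondrocyte genes were called lower (Acan, Col11a1, Hapln1 and Ucma), and over all genes 43 were called higher and 50 lower, of which 38 and 39 were also called with them. That gate used Acan, Col9a1, Col9a2, Matn3, Hapln1 and Snorc, which the list holds. Its cells lay mostly in the younger libraries, so leaving them out had to lower these genes there. The smaller count was thus partly fixed by the gate.

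Called higher in the older libraries with the largest smallest ratio were, among others, Aspa, Cfb, Slco2a1, Snhg11, Coch, Dio2, Igfbp2, Rarres2 and Hk2. Cfb, complement factor B, was at 2.79, 5.38, 47.7 and 59.8 CPM. Coch, cochlin, a secreted matrix protein, was at 0.348, 58.7, 496 and 259.7 CPM in Nov Nppc Tnmd cells, at most 1.68 CPM in Ly6a Cd34 cells and without a UMI in Ostn Aspn Tnn cells. Snhg11, a noncoding RNA host gene, was at 3.48, 18.6, 99.4 and 385 CPM and Hk2, hexokinase 2, at 67.6, 83.6, 306 and 717 CPM. Of the 67 genes 11 were 2-fold higher in the older libraries in Ly6a Cd34 cells too, 11 in Ostn Aspn Tnn cells, 1 in Adipoq cells, 1 in Bglap cells and 15 in neutrophils. Over all genes with a mean of at least 20 CPM in the class, 74 of 5326 were higher in Ly6a Cd34 cells, 87 of 5212 in Ostn Aspn Tnn cells, 16 of 5560 in Adipoq cells, 12 of 4133 in Bglap cells and 18 of 3911 in neutrophils. The counts among the 67 genes had no such minimum in the other class, so they are not shares of these totals.

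Called lower with the largest smallest ratio were R3hdml, Ucma, Cox4i2, C1qtnf3, Fxyd3, Kera, Cnmd, Ncmap, Cd24a and Hist1h2ap. Kera was at 125, 181, 14.2 and 4.12 CPM and, without the cells that met the chondrocyte gate, at 156, 407, 14.7 and 4.12 CPM. Cnmd, chondromodulin, the cartilage relative of Tnmd, was at 580.4, 883, 73 and 0 CPM and, without the cells that met the chondrocyte gate, at 34.4, 154, 24.2 and 0 CPM, where it was no longer called. Cox4i2, a subunit of cytochrome c oxidase, was at 239, 165, 7.1 and 10.3 CPM. Of the 84 genes 23 were also 2-fold lower in Ly6a Cd34 cells, 29 in Ostn Aspn Tnn cells, 14 in Adipoq cells, 2 in Bglap cells and 13 in neutrophils, with no minimum level in those classes. Over all genes with a mean of at least 20 CPM in the class, 53, 85, 18, 3 and 14 were lower in that order of classes. Of the periosteal list Postn, Cthrc1 and Acta2 were called lower of 19, and Adamts5, an aggrecanase, higher. Acta2, smooth muscle actin, was at 269.6, 88, 15.2 and 6.18 CPM.

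Tendon matrix genes went both ways between the libraries: of 28, Thbs4 was called higher and Kera, Col11a1, Col14a1, Tppp3 and Ptx4 lower. Thbs4 was no longer called without the cells that met the chondrocyte gate, where it stood at 618, 911, 1210.0 and 1212 CPM. Fmod, Comp and Mkx were not called, and Scx was at 114 and 159 CPM in the younger libraries and 68.0 and 63.9 CPM in the older. Of 14 small leucine-rich proteoglycans 3 were lower (Kera, Epyc and Chadl). Of 18 microfibril genes Fbln1 was higher and Eln, elastin, and Loxl2 lower. Elastin was at 304, 91.9, 43.6 and 2.06 CPM. Without the cells that met the chondrocyte gate the calls of Fbln1, Epyc, Chadl, Gsn, Has1, Fosb and Tagln were lost too, and Fbn1, Fbn2 and Prg4 were called lower and the bone gene Ibsp higher. Of 26 TGF-beta and BMP genes Tgfbi was lower, of 12 universal fibroblast genes Gsn and Has1 were higher and Dpt and Col14a1 lower, and of the tendon transcription factors, natriuretic peptide, CCN, Wnt, hedgehog and FGF and osteoblast lists none was called with all cells.

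Of 17 immediate early genes, which are known to respond to handling and enzyme digestion, Fosb and Egr3 were the 2 called higher in the older libraries, with a median log2 difference of 1.49 over the list. Egr3 was the 1 called when the cells that met the chondrocyte gate were left out. Fosb was at 634, 675, 1543 and 4192 CPM and Egr1, also a tendon transcription factor, at 338, 548, 834 and 3446 CPM. In Ly6a Cd34 cells Egr1 was at 414, 626, 879 and 2276 CPM and in Ostn Aspn Tnn cells at 346, 483, 696 and 2544 CPM, so the other classes showed the same order of libraries. Genes of the marrow adipogenic stroma had a median log2 difference of 1.90 over 15 genes with no call. One of them, Cxcl12, was at 115, 491, 204 and 2953 CPM in Nov Nppc Tnmd cells and 107, 1011, 1050.0 and 2695 CPM in neutrophils.

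**Figure D5:**
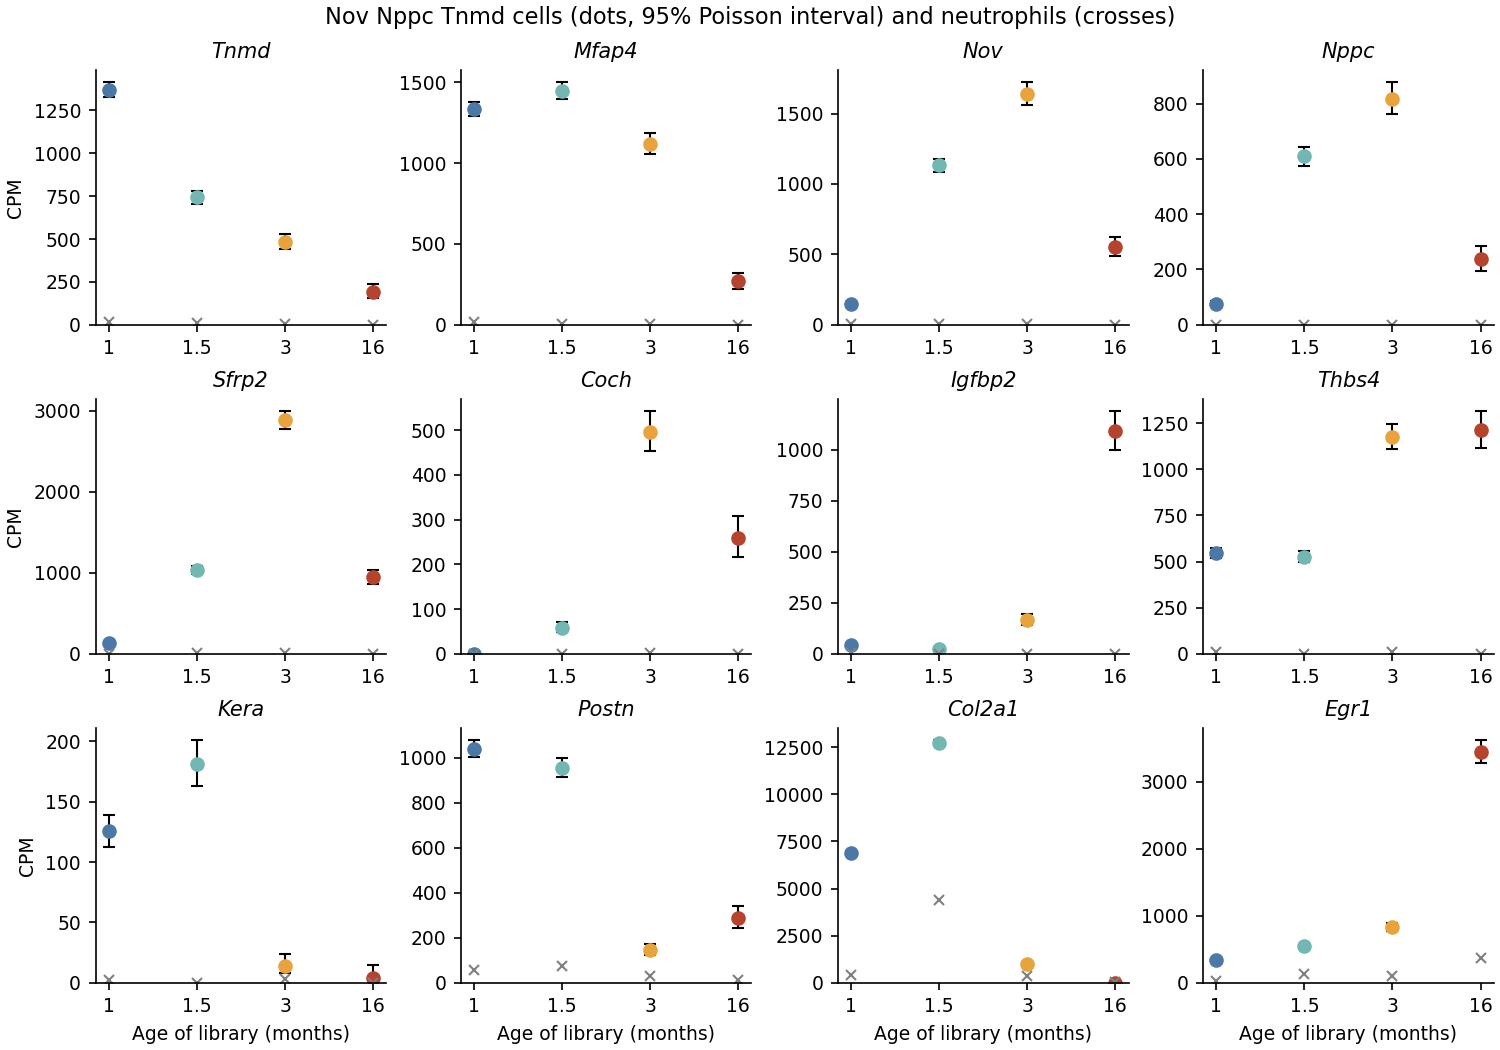
CPM of 12 genes in Nov Nppc Tnmd cells by library with exact 95% Poisson intervals (points) and in neutrophils of the same library (crosses). Tnmd is highest at 1 month, Nov, Nppc and Sfrp2 at 3 months, and Col2a1 is high at 1 and 1.5 months in Nov Nppc Tnmd cells.

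Markers of other cell types moved with the libraries. Over the neutrophil list the cells held 18435, 230.3, 2163 and 173 CPM in order of age, over the erythroid list 13152, 193, 353 and 289 CPM, and over the hematopoietic list, whose defining gene Ptprc the rule set to 0, 719, 15.6, 157 and 16.5 CPM. Ly6a Cd34 cells of the same libraries held 19971, 214, 16815 and 325 CPM of the neutrophil list. The blood genes were thus highest at 1 month in both classes, and with these lists and the chondrocyte list out of the CPM base 155 genes were called between ages, against 151 with them. Beyond the base, their part in the results was not tested. Over the mural list the cells held 420.1, 198, 61.9 and 103 CPM, at 1 month mostly Acta2 and Tagln. Both genes were called lower in the older libraries, and Tagln was called lower than in Ostn Aspn Tnn cells.

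Endothelial genes summed to 25.4 to 72 CPM, with 0, 0, 7 and 1 UMIs of Cdh5 in order of age, and muscle genes to 5.07 to 17.8 CPM, with no UMI of Myf5, Myod1, Pax7, Ckm or Myh4. The Schwann cell list summed to 111 to 466 CPM, mainly S100b and Ncam1, while Sox10 had 1, 3, 0 and 0 UMIs. No muscle gene and at most 1 endothelial gene reached the minimum level for a ratio, so these lists were in effect not compared. No gene of the Schwann (2 measured), hematopoietic (4), neutrophil (10), erythroid (5) or cell cycle (8 or 9) lists was called in any of the 4 comparisons. S100b was called higher in the older libraries once the cells that met the chondrocyte gate were left out. No call was made for 10 limb position genes, among them Hoxa10 at 52.6, 144, 225 and 94.8 CPM and Pitx1, a regulator of hindlimb identity, at 26.5, 80.7, 94.3 and 66 CPM. Cell cycle genes summed to 830.2, 235, 119 and 608 CPM in Nov Nppc Tnmd cells and to 2252, 1957, 1851 and 1609 CPM in neutrophils. The neutrophil gate, on S100a8 and S100a9, did not exclude dividing cells. For these genes neutrophils therefore give no level of free RNA.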

How the data were processed

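Single-cell libraries (10x Chromium, V3 chemistry) were made from Td+ endosteal bone marrow cells at 4 ages. According to the labels and methods, the authors aligned reads with Cell Ranger 3.0.2 to mm10 extended with the reporter and worked further in Seurat 2. The deposited values are raw UMI counts per gene and barcode, without normalization, and still hold barcodes outside the authors' stated filter.

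The filter on cells followed the stated limits: 200 to 6000 detected genes, and mitochondrial UMIs of 5% or less. Cells were classed by gates on UMI counts, not by clustering. Ly6a Cd34 cells had at least 2 UMIs of Ly6a and at least 3 of Cd34, Clec3b, Pi16, Mfap5, Dpt and Gsn with a UMI. Ostn Aspn Tnn cells had a UMI of Ostn and at least 3 of Aspn, Tnn, Edil3, Postn and Dkk3. Chondrocytes had 2 or more UMIs of at least 4 of Acan, Col9a1, Col9a2, Matn3, Hapln1 and Snorc (listed as 3110079O15Rik). For CPM, the UMIs of all cells in a class and library were added up, using the 26601 genes that every table lists, with exact Poisson intervals. Shares of cells with a UMI were taken after random thinning to 3000 UMIs. Where no UMI was found, 3 counts set the upper limit. Intervals cover counting error only. No doublet caller was run; the upper gene limit and the alternatives below stand in for it.

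Ratios had 1 CPM added, and genes needed a mean of 20 CPM. The rule genes were left out of every comparison, and genes of the Ly6a Cd34 or Ostn Aspn Tnn gate out of the comparison with that class. Other gate genes were kept. Among the called genes, Acan, Col9a1 and Col9a2 thus belong to the chondrocyte gate. Postn, Gsn and Dpt, called between ages, belong to the gates of the other classes. Named genes were the rule genes, list members with the highest level or a call, and up to 10 genes in each direction with the largest smallest-library ratio, leaving out mitochondrial genes and unnamed gene models. A gene that this rule names between ages is not reported here. The members and gene lists were chosen with earlier results of these data known, and with 1 library per age no test was made. The comparison scripts were tested on simulated data. Alternatives are described in the closing section. Python 3.11.15, numpy 2.4.6, scipy 1.17.1 and pandas 2.3.3 were used, and gene positions came from GENCODE M21 (GRCm38).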

Additional observations from a re-analysis of the deposited data

Results flagged for a closer look

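Barcodes above 5% mitochondrial UMIs lie outside all the comparisons, and some of them met every other part of the rule. There were 7 such barcodes of 98 at 1 month (7.14%), 6 of 291 at 1.5 months (2.06%), 6 of 325 at 3 months (1.85%) and 12 of 2892 at 16 months (0.415%), counting barcodes within the gene limits. The median mitochondrial share of these barcodes was 5.80, 5.54, 6.0 and 6.0% in the same order, just over the limit. With no control sample in the series, they were picked out because each count exceeds the 3 that a count of 0 allows.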

How the results depend on the processing

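Of the 129 alternative values of the shares and gene counts 65 moved by less than the interval or 1.5 times. Shares are given below as percent of filtered cells and then of gated mesenchymal cells, each in order of age, and gene counts hold both directions. With at least 4 rule genes the shares were 2.20, 2.71, 3.68 and 0.488%, and 20.9, 6.30, 13.7 and 0.870%, with 5 genes called between cells with and without Tnmd and 87 between ages. With at least 2 they were 5.91, 8.42, 5.72 and 1.45%, and 41.5, 17.3, 19.7 and 2.54%, with 74 genes called against Ostn Aspn Tnn cells and 4 by Tnmd. With cells thinned to 3000 UMIs before the rule, the shares of filtered cells were 2.72, 3.25, 4.45 and 0.533%. The 1 month share of mesenchymal cells was then 23.4%, and 27 genes were called by Tnmd. Without the cells that met the chondrocyte gate, the 1 and 1.5 month shares were 3.15 and 2.07%, and 27.5 and 4.89%, with 4 genes called by Tnmd and 93 by age. A lower upper limit on genes per cell gave 5 by Tnmd.

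Leaving out cells with 2 or more UMIs of endothelial, mural, Schwann, muscle and blood genes left 2, 66, 91 and 7 cells and gave shares of 0.0241, 1.21, 2.18 and 0.114%, and 0.289, 2.91, 8.55 and 0.204%, the setting in which the order of the 1 and 16 month shares of filtered cells turned. It gave 442 genes against Ly6a Cd34 cells, 376 against Ostn Aspn Tnn cells, 717 by Tnmd and 280 by age. The comparisons with other classes and by Tnmd held fewer cells and libraries. The count by age kept all 4 libraries and so rests on 2 cells at 1 month and 7 at 16 months. A fold of 1.5 gave 456, 263, 13 and 457 in that order of comparisons. A fold of 3 gave 122, 41 and 53 against Ly6a Cd34 cells, against Ostn Aspn Tnn cells and by age. A minimum of 5 CPM gave 361, 180, 10 and 325, and one of 50 CPM 144, 71, 1 and 92. With each library left out in turn, 279 to 322 genes were called against Ly6a Cd34 cells, 121 to 186 against Ostn Aspn Tnn cells and 5 to 11 by Tnmd. With blood and cartilage genes out of the CPM base 155 genes were called by age. Mitochondrial limits of 10% and, added after the data were seen, of 30% kept every share and count near its value, although H19 was no longer called against Ly6a Cd34 cells. Except where the number of cells or genes compared changed, the cause was not tested. Of the alternative values of named genes 310 moved and 904 did not.

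No paired analysis was possible because each age is 1 library and no test was made. Depth limits the 16 month values most, since 46 cells carry them, and the 3 month cells were the shallowest. Genes near 20 CPM rest on few UMIs there.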
